A study of Capsicum annuum and Solanum lycopersicum with 125 samples.

Results

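The genes followed here through graft healing and graft failure act in the metabolism and perception of salicylic acid (SA). They are ICS1 (Solyc06g071030), NPR1 (Solyc07g040690), an NPR1-like gene (Solyc02g069310) and the salicylate methyltransferase SAMT (Solyc09g091550), taken from a list of gene identifiers, and all 4 of them are among the 34688 genes of the tomato count table. The name of NPR1 is the one the study uses for that identifier. The other names are those of the list and were not checked against a tomato annotation. Tomato M82 and pepper California Wonder seedlings were self-grafted or grafted reciprocally, so that a heterografted tomato scion sat on a pepper stock and a heterografted tomato stock carried a pepper scion. Tomato tissue came from the scions and the stocks of both kinds of graft and from ungrafted stems of the same age. It was taken 7, 14 or 21 days (DAG) after the grafting, in 15 groups of 3 to 5 biological replicates and 61 libraries in all. The tomato seedlings were 14 days old when they were grafted, the grafts healed in the dark for the first 3 days, and no line carried a transgene or mutation according to the labels. The stem label was read against 6 identifiers listed as markers of green tissue (Rubisco small subunits and light-harvesting proteins) and 2 listed as vascular markers, whose names were likewise not checked against a tomato annotation. All 8 were counted in each group of full-depth libraries.

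Plants make SA through isochorismate and through phenylalanine, and isochorismate synthase (ICS1 in Arabidopsis) opens the first. NPR1 is an SA receptor and transcriptional coactivator that in Arabidopsis turns on PR1 and other defence genes, and plants hold several NPR1-related proteins, some of which repress the same targets. SAMT converts SA to methyl salicylate, a volatile form that can leave the cell and move between tissues. SA signalling accompanies the hypersensitive response, the local cell death that follows immune recognition.

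Total counts ran from 952084 to 3136541 in 55 libraries. The other 6 libraries were heterografted stocks, with 900 to 1509 counts at 14 DAG and 32731, 226553 and 267066 counts at 21 DAG. Values of 0 were more frequent in the table than low counts were. Among 2207 genes with a median of 10 to under 20 counts over the 55 full-depth libraries, 15.1% of values were 0, 2.13% were 1 to 3 and 5.90% were 4 to 6. In 1.78% of the combinations of such a gene with a group, every library was at 0. NPR1 (median 19 counts) and SAMT (median 16 counts) fall in this class. NPR1 was at 0 in 3 and SAMT in 10 of the 55 libraries, neither gene had 1 to 3 counts in any of them, and the lowest counts above 0 were 4 for NPR1 and 5 for SAMT. A value of 0 is therefore given below as listed at 0. Of the results that rest on such values, several are also given without them, as a value or as whether the call held.

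**Figure D1:**
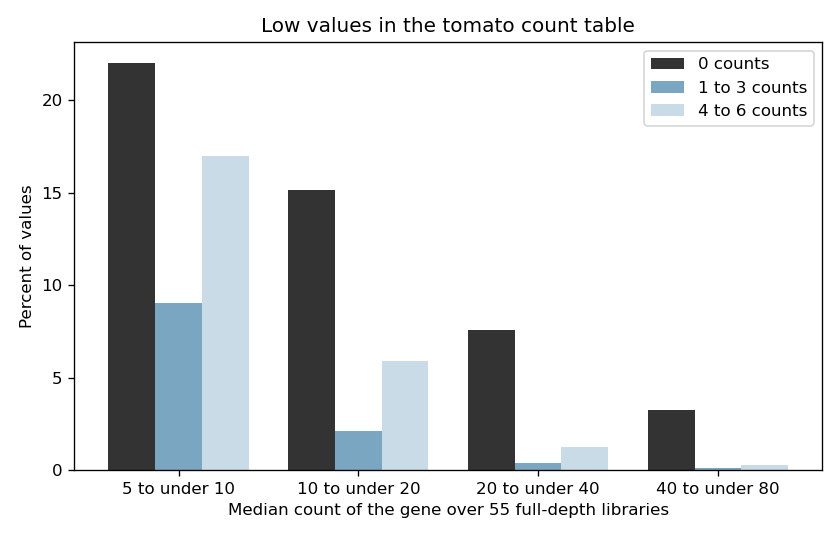
Low values in the tomato count table. Bars give the percent of values over the 55 full-depth libraries that were 0, 1 to 3 or 4 to 6 counts (y axis), for genes in 4 classes of median count (x axis). In each class the bar for 0 is the tallest, 15.1% against 2.13% and 5.90% in the class of 10 to under 20 counts that holds NPR1 and SAMT.

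ICS1, the first enzyme of the isochorismate route, had no count in any library. It was listed at 0 in all 61 libraries, out of 107639084 counts in all, which allows a level of up to 0.0279 CPM (counts scaled to a library size of 1e6) over the libraries together (3 counts, counting error only). The limit over the libraries together holds only if low counts were not listed as 0. In single full-depth libraries the limit from 3 counts was 0.956 to 3.15 CPM. As many as 12114 genes (34.9%) were listed at 0 in every library. The libraries were sequenced from the 3′ ends of polyadenylated transcripts and counted over gene models, and the part of this in the value of 0 was not tested. No comparison between groups could be made for ICS1, which was listed at 0 in every group.

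The other 3 genes passed the filter on low counts with 12176 genes in all. Levels are given as CPM on library sizes scaled by the trimmed mean of M-values over all 61 libraries, and differences as log2 fold changes with their standard errors (SE) from edgeR's quasi-likelihood test, with p-values adjusted by Benjamini-Hochberg over the 12176 genes. A gene was called upregulated or downregulated at an adjusted p under 0.05 with a log2 fold change beyond 1.5 in either direction. In bulk tissue fewer cells of a type and less RNA per cell cannot be told apart.

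**Figure D2:**
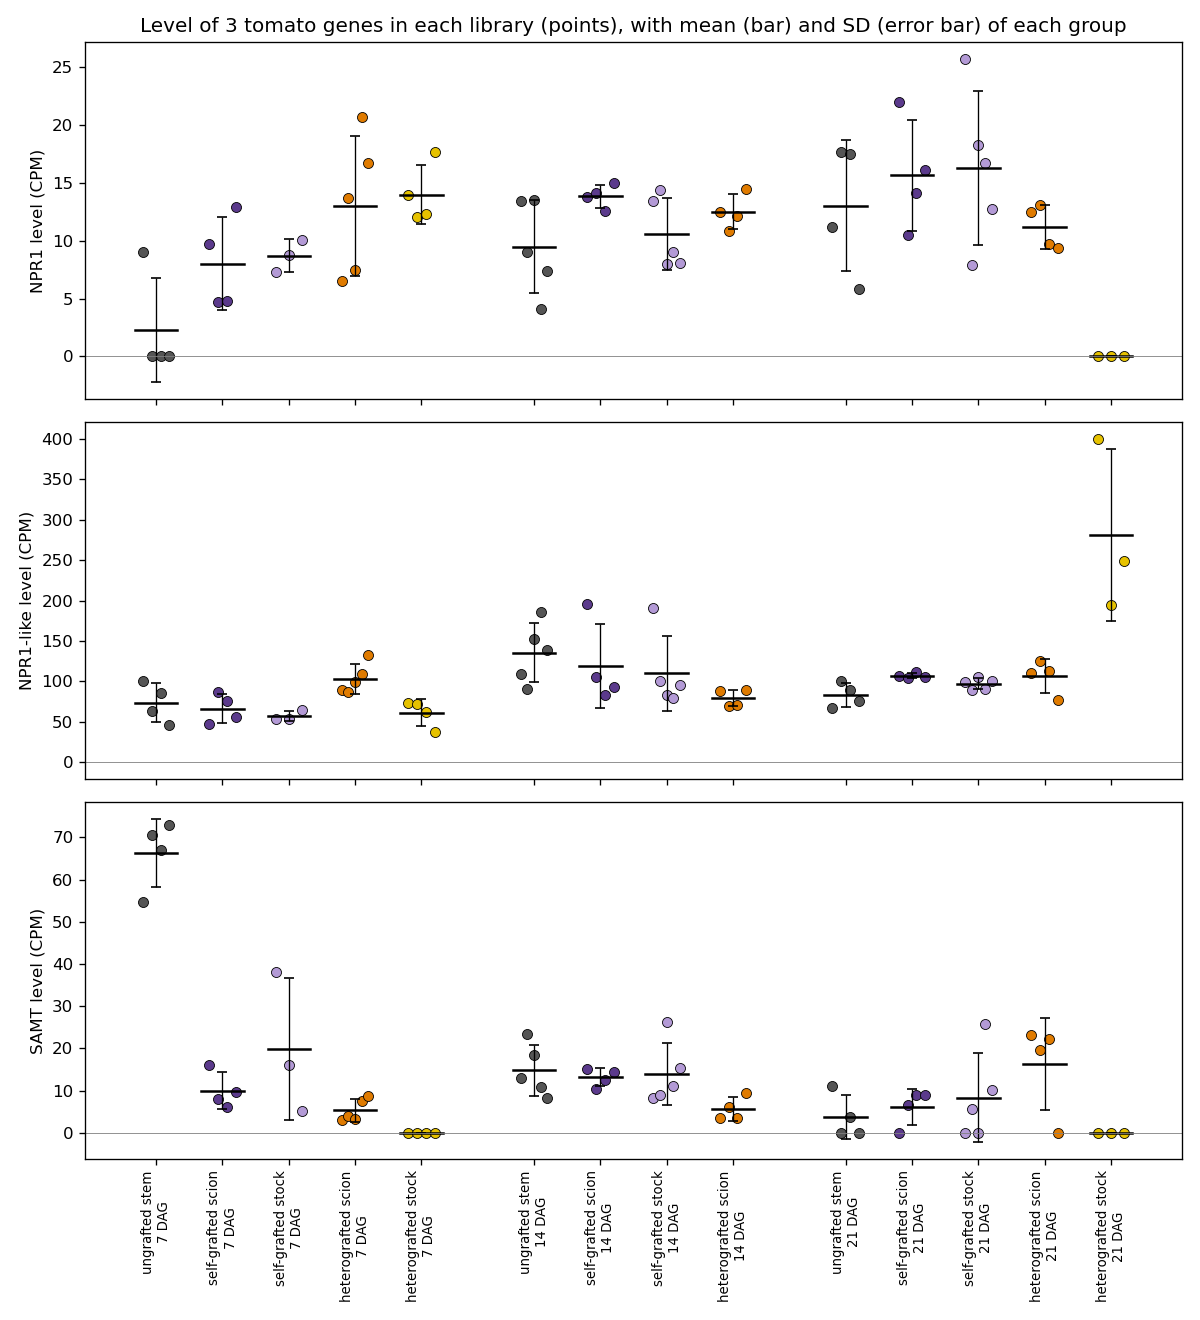
Level of NPR1, NPR1-like and SAMT in each library (points, CPM on the y axis), by tissue and DAG (x axis). Bars give group means and error bars the SD. The heterografted stocks of 14 DAG (900 to 1509 counts) are left out. SAMT at 7 DAG lay between 54.7 and 72.9 CPM in the 4 ungrafted stems, above every grafted library. The mean of NPR1-like was highest in the heterografted stocks of 21 DAG. Their lowest library (195 CPM) lay just under the highest self-grafted scion of 14 DAG (196 CPM).

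SAMT at 7 DAG was highest in ungrafted stems, lower in self-grafted and heterografted scions, and listed at 0 in all 4 heterografted stocks. The 4 ungrafted stems held 54.7, 70.7, 67.0 and 72.9 CPM (66.3 ± 8.14, SD, n = 4). The self-grafted scions held 16.2, 8.06, 5.99 and 9.69 CPM (9.98 ± 4.40, n = 4). No library of the self-grafted scions reached the level of an ungrafted stem. The difference was -2.72 on the log2 scale (SE 0.552, adjusted p = 0.0139), a call made for 1.93% of all genes in this comparison, and SAMT was the 1 gene of the 3 called. Without replicate 5 of the self-grafted scions the adjusted p was 0.0531, and in 1 fit over all 15 groups it was 0.0990.

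The 3 self-grafted stocks of 7 DAG spread widely in SAMT, at 38.1, 16.2 and 5.05 CPM (19.8 ± 16.8). All of them lay below the ungrafted stems. The difference of -1.73 (SE 0.582) did not pass (adjusted p = 0.145), and none of the 3 genes was called in this comparison, where 1.19% of all genes were. The heterografted scions held 2.97, 3.98, 3.21, 7.59 and 8.63 CPM (5.28 ± 2.64, n = 5), 12.6-fold below ungrafted stems in mean level. SAMT was downregulated there by a log2 fold change of -3.66 (SE 0.528, adjusted p = 2.23e-04), again the 1 gene of the 3 called, beside 8.16% of all genes. This call held without each library in turn.

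The listed tissue markers differed between the same groups of 7 DAG. The summed level of the 6 green identifiers was 1889 to 3395 CPM in ungrafted stems, 1007 to 1436 CPM in self-grafted scions, 1943 to 2535 CPM in self-grafted stocks, 384 to 807 CPM in heterografted scions and 3046 to 6049 CPM in heterografted stocks. That of the 2 vascular identifiers was 25.2 to 116 CPM in ungrafted stems and 137 to 349 CPM in the grafted tissues. The heterografted stocks, listed at 0 for SAMT, had the highest green sum. The heterografted scions, next lowest in mean SAMT, had the lowest green sum. Self-grafted stocks had a higher green sum than self-grafted scions and a higher mean of SAMT (19.8 against 9.98 CPM), with overlap in SAMT. SAMT was highest in ungrafted stems, where the vascular sum was lowest. The part of tissue composition in the differences of the 3 genes was not tested.

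In the heterografted stocks of 7 DAG, whose totals were 1372534 to 2358149 counts, SAMT was listed at 0 in replicates 1, 2, 3 and 5. Read as counts, these values allow up to 0.460 CPM over the group (3 counts). SAMT was then at least 144-fold lower than in ungrafted stems (adjusted p = 1.17e-06), at least 42.9-fold lower than in self-grafted stocks (adjusted p = 2.01e-05) and at least 11.5-fold lower than in heterografted scions (adjusted p = 1.60e-04). These folds hold only if low counts were not listed as 0. SAMT had no value of 1 to 3 counts in any full-depth library. At 3 counts in each library of the group the limit was 1.51 to 2.32 CPM, and the folds would be smaller. In this group 267 of the 12176 genes (2.19%) were at 0 in every library. Since no library of the group had a count of SAMT, no value without the zeros can be had. The groups did not overlap in any of these 3 comparisons. Of the 3 genes, SAMT was the 1 called between heterografted and self-grafted stocks, where 10.5% of all genes were called, and the 1 called between heterografted stocks and heterografted scions, where 15% of all genes were.

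Heterografted and self-grafted scions of 7 DAG overlapped in SAMT, and the difference of -0.94 (SE 0.516, adjusted p = 0.400) did not pass. None of the 3 genes was called between these groups, where 2.37% of all genes were. Whether the difference between heterograft and self-graft was itself unlike in scion and stock was not tested. Between self-grafted stock and self-grafted scion SAMT differed by 1.0 (SE 0.564, adjusted p = 0.776).

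At 14 DAG the levels of SAMT had drawn together. Ungrafted stems held 13, 23.4, 18.5, 10.8 and 8.30 CPM (14.8 ± 6.10, n = 5), self-grafted scions 10.4 to 15.1 CPM (13.1 ± 2.11, n = 4) and self-grafted stocks 8.33 to 26.2 CPM (14.0 ± 7.40, n = 5). None of the 3 genes was called in self-grafted scions or stocks against ungrafted stems at 14 DAG, where 3.33% and 1.59% of all genes were. SAMT differed there by -0.17 (SE 0.400) in the scions and by -0.08 (SE 0.375) in the stocks. The heterografted scions held 3.56, 6.21, 3.40 and 9.31 CPM (5.62 ± 2.78, n = 4), below each self-grafted scion and overlapping the ungrafted stems. With DESeq2 size factors they also overlapped the self-grafted scions. Against self-grafted scions the difference was -1.21 (SE 0.432, adjusted p = 0.0527), with no call among the 3 genes and calls for 5.63% of all genes. Against ungrafted stems it was -1.37 (SE 0.416), with an adjusted p of 0.0214 and a size under the threshold of 1.5, again with no call among the 3 genes and calls for 9.7% of all genes. Both passed when replicate 4 of the heterografted scions, the highest of its group, was left out (-1.56, adjusted p = 0.0261, and -1.72, adjusted p = 0.0130). Against ungrafted stems it also passed without replicate 5 of the ungrafted stems (-1.52, adjusted p = 0.0134). With DESeq2 size factors, which moved the median of all genes by 0.47, it was -0.89 (adjusted p = 0.0958).

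At 21 DAG SAMT was listed at 0 in libraries of every group. Ungrafted stems held 11.2, 0, 3.64 and 0 CPM, self-grafted scions 0, 6.48, 8.92 and 9.02 CPM and self-grafted stocks 0, 5.74, 0, 25.8 and 10.2 CPM. The heterografted scions held 23.2, 19.7, 22.1 and 0 CPM (16.3 ± 10.9, n = 4), so that 3 of them lay above every ungrafted stem and self-grafted scion and the other was listed at 0 with 2146451 counts in all. SAMT differed by 1.35 (SE 1.41, adjusted p = 0.607) from self-grafted scions and by 2.04 (SE 1.45, adjusted p = 0.408) from ungrafted stems. Neither difference was called under any of 10 other settings, among them the fit without libraries at 0 for SAMT. None of the 3 genes was called in these comparisons, in which 8.13% and 7.44% of all genes were. None was called in self-grafted scions (0.156% of all genes) or self-grafted stocks (0.0903%) against ungrafted stems either. Self-grafted and heterografted tissues were compared with the same ungrafted stems, so these comparisons share libraries. The 3 heterografted stocks of 21 DAG were listed at 0 for SAMT, and their depth allows up to 3.89 CPM over the group, about the mean of the ungrafted stems (3.70 CPM), so a difference from them was not detectable at this depth. In 1 fit over all 15 groups SAMT was called lower than in self-grafted stocks (adjusted p = 0.0466, against 0.164 in the fit of the day).

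Over time SAMT fell in ungrafted stems. The mean was 66.3 CPM at 7 DAG, 14.8 CPM at 14 DAG and 3.70 CPM at 21 DAG. The fit over all 15 groups gave -2.15 at 14 against 7 DAG (SE 0.833, adjusted p = 0.107) and -4.07 at 21 against 7 DAG (SE 1.0, adjusted p = 0.00134). Of the ungrafted stems of 21 DAG, 2 were listed at 0, and the mean without them was 7.41 CPM. The call at 21 DAG held under all 9 other settings, among them the fit without libraries at 0 for SAMT. The 5 ungrafted stems of 14 DAG all lay below the 4 of 7 DAG, and with only the 2 groups in the fit the adjusted p was 0.00466. In these comparisons of ungrafted stems 4.11% (14 DAG) and 18.9% (21 DAG) of all genes were called. In self-grafted scions SAMT differed by 0.38 (SE 0.894) at 14 and -0.72 (SE 0.926) at 21 against 7 DAG, and none of the 3 genes was called, with 5.69% and 17.7% of all genes called.

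In heterografted scions SAMT differed by 0.11 (SE 0.865) at 14 DAG and by 1.61 (SE 0.858, adjusted p = 0.236) at 21 DAG against 7 DAG. None of the 3 genes was called, beside 1.24% and 3.33% of all genes. Without the libraries listed at 0 for SAMT, an alternative chosen after the data were seen, the rise from 7 to 21 DAG was 2.03 (adjusted p = 0.00239) and passed. The difference between heterografted and self-grafted scions at 21 DAG minus that at 7 DAG was 2.32 (SE 1.26, adjusted p = 0.299), and 2.34 (adjusted p = 0.0299) without those libraries. At 14 against 7 DAG the same change of the difference was -0.27 (SE 1.26, adjusted p = 1.0). None of the 3 genes was called for a change of the scion difference, where 0.534% (14 DAG) and 5.58% (21 DAG) of all genes were.

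**Figure D3:**
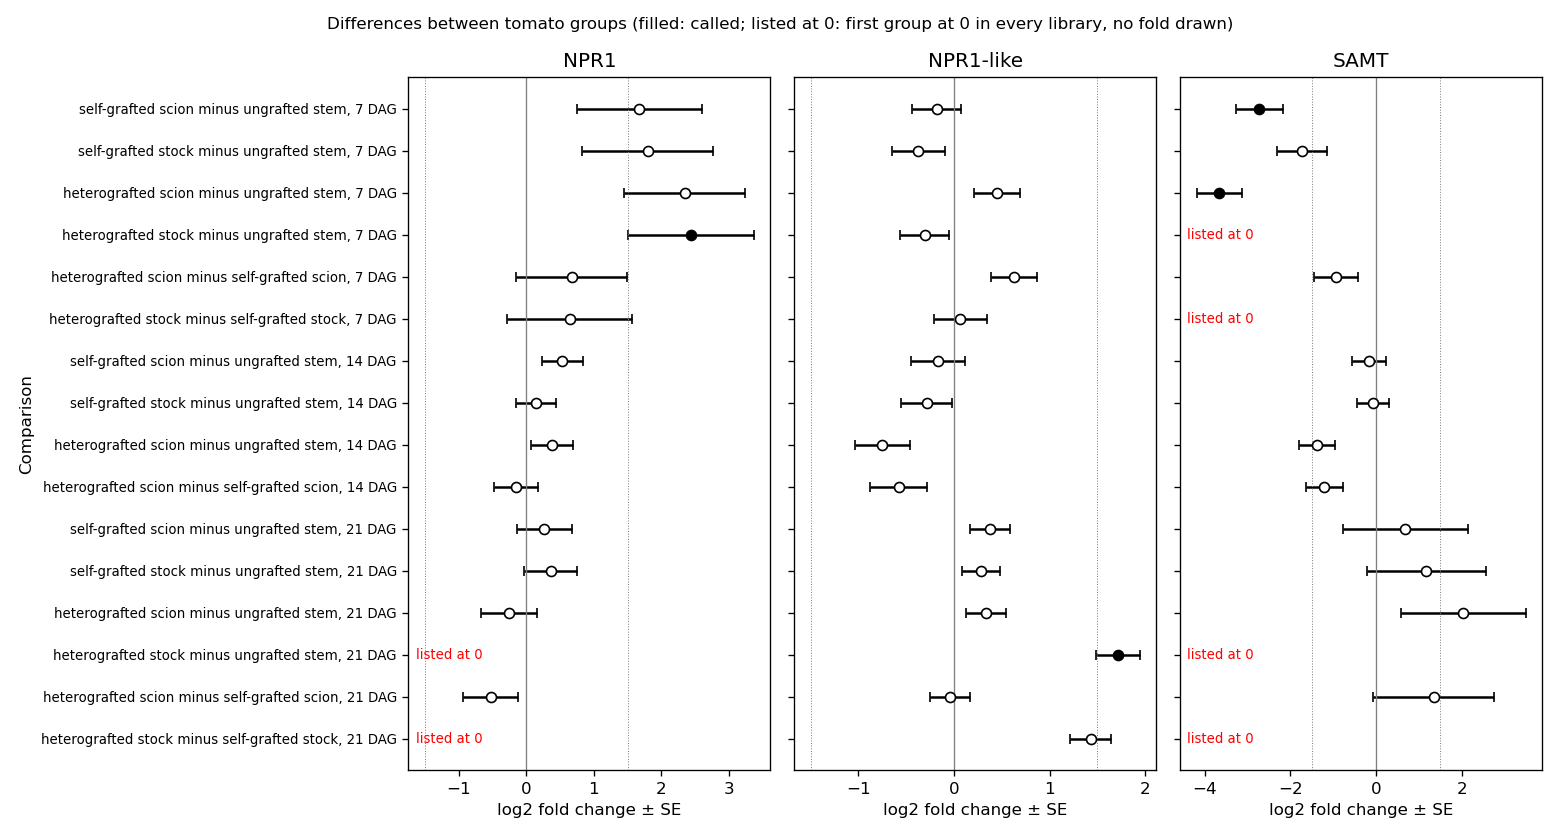
Log2 fold changes (x axis, points, with bars of 1 SE) of NPR1, NPR1-like and SAMT in 16 comparisons within a day (y axis). Filled points were called (adjusted p under 0.05 and beyond the dotted lines at 1.5), and "listed at 0" marks a comparison whose first group was at 0 in every library, for which no fold is drawn. SAMT lies to the left at 7 DAG (-2.72, -1.73 and -3.66 against ungrafted stems), and NPR1-like lies between -0.75 and 0.63 except in the heterografted stocks of 21 DAG (1.72 and 1.43).

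NPR1, the SA receptor and coactivator, held a narrow range of low levels in most groups, and no comparison between heterografted and self-grafted tissue with counts in both groups called it. At 7 DAG the heterografted scions held 6.52, 13.7, 7.48, 20.7 and 16.7 CPM (13 ± 6.05, n = 5) and the self-grafted scions 9.70, 4.70, 4.79 and 12.9 CPM (8.03 ± 4.01, n = 4). The groups overlapped, and the difference was 0.67 (SE 0.818, adjusted p = 0.80). The heterografted stocks held 13.9, 12.1, 12.3 and 17.7 CPM (14.0 ± 2.58, n = 4), each above the self-grafted stocks at 7.28, 8.78 and 10.1 CPM (8.72 ± 1.41, n = 3). With DESeq2 size factors these groups of stocks overlapped. The difference between them of 0.64 (SE 0.928, adjusted p = 0.722) did not pass, and heterografted stock and scion differed by 0.10 (SE 0.798, adjusted p = 0.949).

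The ungrafted stems of 7 DAG set the lowest full-depth level of NPR1. Replicate 1, the deepest of the group with 1771240 counts, held 13 counts of NPR1 (8.99 CPM), and replicates 2, 3 and 5, with 1100645 to 1540814 counts, were listed at 0. Against this group NPR1 was higher in heterografted stocks by 2.44 (SE 0.928, adjusted p = 0.0480), the call beside SAMT that made 2 of 3 genes called in a comparison with 19.5% of all genes called. The call was lost without any of the 4 heterografted stocks or any of the ungrafted stems listed at 0 (adjusted p 0.0608 to 0.101), and without the zeros the difference was 0.63 (adjusted p = 0.679), with 1 ungrafted library left and assumed to vary like the other groups. Heterografted scions (2.34, adjusted p = 0.0863, but 0.00393 in 1 fit over all 15 groups), self-grafted scions (1.67, adjusted p = 0.478) and self-grafted stocks (1.80, adjusted p = 0.400) gave differences that did not pass. Without the zeros NPR1 in self-grafted scions and stocks differed from ungrafted stems by -0.16 and -0.03. Without replicate 1 of the ungrafted stems, which left that group at 0 throughout, all 4 grafted tissues were called, with an adjusted p of 8.65e-05 in heterografted scions, 0.00135 in self-grafted scions, 0.00199 in self-grafted stocks and 3.16e-05 in heterografted stocks.

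By 14 DAG NPR1 was found in every full-depth library. The ungrafted stems held 13.4, 9.03, 13.6, 4.14 and 7.38 CPM (9.51 ± 4.05, n = 5), the self-grafted scions 12.6 to 15 CPM (13.9 ± 1.0, n = 4), the self-grafted stocks 8.04 to 14.4 CPM (10.6 ± 3.08, n = 5) and the heterografted scions 10.9 to 14.5 CPM (12.5 ± 1.52, n = 4). All 4 groups overlapped. Heterografted and self-grafted scions differed by -0.15 (SE 0.321, adjusted p = 0.799), and by 0.24 with DESeq2 size factors. At 21 DAG ungrafted stems held 11.2, 17.7, 17.5 and 5.84 CPM (13 ± 5.67, n = 4), self-grafted scions 10.5 to 22.0 CPM (15.7 ± 4.79, n = 4), self-grafted stocks 7.89 to 25.8 CPM (16.3 ± 6.65, n = 5) and heterografted scions 9.39 to 13.1 CPM (11.2 ± 1.89, n = 4). The heterografted scions lay within the range of the ungrafted stems, and differed from self-grafted scions by -0.53 (SE 0.410, adjusted p = 0.462).

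NPR1 was upregulated over time in ungrafted stems, against the 7 DAG group that was listed at 0 in 3 of 4 libraries. The differences were 1.90 at 14 DAG (SE 0.60, adjusted p = 0.0377) and 2.35 at 21 DAG (SE 0.622, adjusted p = 0.00263), and NPR1 was the 1 gene of 3 called at 14 DAG and 1 of 2 called at 21 DAG. Without the zeros they were 0.09 (adjusted p = 0.990) and 0.51 (adjusted p = 0.624). The call at 14 DAG was also lost with the DESeq2 size factors (adjusted p = 0.0701) and without replicate 1 or 3 of 14 DAG or replicate 2, 3 or 5 of 7 DAG (adjusted p 0.0827 to 0.144). In heterografted scions NPR1 differed by -0.06 (SE 0.520) at 14 and -0.22 (SE 0.528) at 21 against 7 DAG, and in self-grafted scions by 0.76 (SE 0.562) and 0.94 (SE 0.564), with no call.

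The NPR1-like gene was counted in every library but the 3 heterografted stocks of 14 DAG. Its counts were 43 to 298 in the 55 full-depth libraries, so that its values rest on more reads than those of NPR1 or SAMT. At 7 DAG the heterografted scions held 89.0, 86.7, 99.4, 109 and 132 CPM (103 ± 18.5, n = 5), all above the self-grafted scions at 47.2, 86.6, 75.4 and 56.0 CPM (66.3 ± 18.0, n = 4), whose top value of 86.6 CPM lay just under the lowest heterografted one. On CPM from total counts and with DESeq2 size factors these groups overlapped. The difference of 0.63 (SE 0.243) did not pass (adjusted p = 0.159). The heterografted stocks held 73.5, 72.5, 62.3 and 37.7 CPM (61.5 ± 16.6, n = 4), below every heterografted scion, with a difference of -0.76 (SE 0.243, adjusted p = 0.0234) that was under the threshold on size. They overlapped the self-grafted stocks of 53.2, 54.0 and 64.2 CPM (57.1 ± 6.10, n = 3) and differed from them by 0.07 (SE 0.275, adjusted p = 0.924).

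Ungrafted stems held 46.1 to 101 CPM of NPR1-like at 7 DAG (73.9 ± 24.1, n = 4) and overlapped all 4 grafted tissues, from which they differed by -0.37 to 0.45 on the log2 scale. At 14 DAG the ungrafted stems held 109, 91.3, 153, 185 and 139 CPM (136 ± 36.8, n = 5), all above the heterografted scions of 87.7, 69.8, 71.4 and 89.0 CPM (79.5 ± 10.3, n = 4). On CPM from total counts and with DESeq2 size factors these groups overlapped. The difference was -0.75 (SE 0.287, adjusted p = 0.0626), or -0.31 (adjusted p = 0.438) with DESeq2 size factors. The self-grafted scions held 196, 105, 83.0 and 92.7 CPM (119 ± 51.7, n = 4), and the heterografted scions differed from them by -0.58 (SE 0.300, adjusted p = 0.182). The sign of the scion difference was thus opposite at 7 and 14 DAG, and the change between the days was -1.22 (SE 0.360, adjusted p = 0.0894), short of both thresholds. At 21 DAG the scions held 77.3 to 126 CPM in heterografts (107 ± 20.6, n = 4) and 104 to 112 CPM in self-grafts (107 ± 3.11, n = 4), a difference of -0.04 (SE 0.207, adjusted p = 0.931).

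From 7 to 14 DAG NPR1-like rose in ungrafted stems by 0.87 (SE 0.252, adjusted p = 0.0222) and in self-grafted scions by 0.85 (SE 0.263, adjusted p = 0.0212), under the threshold on size in both. With the DESeq2 size factors the median of all genes moved by -0.42 and -0.50 in these 2 comparisons, and NPR1-like differed by 0.45 (adjusted p = 0.324) and 0.36 (adjusted p = 0.441), no longer past the adjusted p. At 21 against 7 DAG the differences were 0.17 (SE 0.264, adjusted p = 0.664) in ungrafted stems and 0.69 (SE 0.263, adjusted p = 0.0339) in self-grafted scions. In heterografted scions they were -0.38 (SE 0.245) at 14 DAG and 0.05 (SE 0.245) at 21 DAG.

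The heterografted stocks of 21 DAG, tomato stocks under a pepper scion with 32731 to 267066 counts, parted the 3 genes. NPR1-like had 130, 26 and 78 counts, or 400, 195 and 249 CPM (281 ± 106, n = 3), above each of the 4 ungrafted stems (67.7 to 100 CPM) and the 5 self-grafted stocks (89.7 to 106 CPM). Against ungrafted stems it was upregulated by 1.72 (SE 0.228, adjusted p = 2.98e-06), and against self-grafted stocks it was 1.43 higher (SE 0.214, adjusted p = 1.15e-05), just under the threshold on size. NPR1 and SAMT were listed at 0 in all 3 stocks. Over all genes the median difference was -3.74 on the log2 scale against ungrafted stems and -3.67 against self-grafted stocks, and 5.66% and 5.77% of all genes had a difference at or above that of NPR1-like. On CPM from total counts, NPR1-like held 574, 794 and 292 CPM in these stocks, above every other library.

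NPR1 in the same stocks was called lower against ungrafted stems (adjusted p = 2.10e-04) and self-grafted stocks (adjusted p = 8.25e-05). At a floor of 3 counts over the group (3.89 CPM) it was at least 3.35-fold and 4.19-fold lower. These folds hold only if low counts were not listed as 0, and NPR1 had no value of 1 to 3 counts in any full-depth library. At 3 counts in each library the limits were 9.23, 22.5 and 9.59 CPM. NPR1 held 5.84 to 17.7 CPM in ungrafted stems and 7.89 to 25.8 CPM in self-grafted stocks. If low counts were listed as 0, neither the folds nor the calls show a lower level of NPR1. With NPR1-like, 2 of 3 genes were called against ungrafted stems, where 60.3% of all genes were called, and 1 of 3 against self-grafted stocks, where 59.8% were. In this group 5666 of 12176 genes (46.5%) were at 0 in every library. The listed markers were low in the same stocks, with a green sum of 21.5 to 109 CPM (5 of 6 identifiers counted) against 684 to 1869 CPM in self-grafted stocks and a vascular sum of 0 to 61.5 CPM against 253 to 341 CPM. The study describes the RNA of stocks of incompatible grafts as degraded. Depth, the markers and RNA quality move with the group, and their part in the differences was not tested. Without replicate 1 of the heterografted stocks, the library with the most NPR1-like, the difference from ungrafted stems was 1.40 (adjusted p = 2.70e-05) and under the threshold on size. Against self-grafted stocks it passed without replicate 2 (1.78) or replicate 4 (1.54). The heterografted stocks of 14 DAG held no count of any of the 4 genes among 900, 912 and 1509 counts, which says nothing of the level of the genes.

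Ordered by mean level over the 14 groups with enough depth, NPR1-like was highest in the heterografted stocks of 21 DAG (281 CPM), which did not overlap the next group, the ungrafted stems of 14 DAG (136 CPM). They did overlap the self-grafted scions of 14 DAG, with a lowest stock of 195 CPM and a highest scion of 196 CPM. All other neighbours in the order of NPR1-like overlapped, down to 57.1 CPM in self-grafted stocks of 7 DAG. SAMT was highest in ungrafted stems of 7 DAG, which did not overlap the self-grafted stocks of 7 DAG that came next (19.8 CPM), and every later neighbour overlapped. In NPR1 every pair of neighbours overlapped, from 16.3 CPM in self-grafted stocks of 21 DAG to the heterografted stocks of 21 DAG listed at 0. Over these group means the Pearson correlation of log2(CPM + 1) was -0.44 between NPR1 and NPR1-like, -0.04 between NPR1 and SAMT and -0.31 between NPR1-like and SAMT. Without the shallow heterografted stocks of 21 DAG, where NPR1 and SAMT were listed at 0 and NPR1-like was highest, it was 0.31, -0.74 and 0.13 over 13 groups, so the values rest on that group. The points share libraries and depth, and these values are descriptions.

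By the same measure over the 14 groups, the genes most like NPR1 were Solyc04g070990 (r = 0.989), Solyc04g079410 (0.985) and Solyc06g069480 (0.980). Those most like NPR1-like were Solyc11g006960 (0.911), Solyc09g030390 (0.886) and Solyc03g121360 (0.880), and those most like SAMT were Solyc06g073450 (0.965), Solyc06g069380 (0.943) and Solyc12g011023 (0.942). Without the heterografted stocks of 21 DAG these values were 0.955 to 0.974 for NPR1, 0.680 to 0.794 for NPR1-like and 0.924 to 0.953 for SAMT. No annotation of these identifiers was used here.

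A list of 33 further identifiers of the SA pathway was read beside the 4 genes. Of them 28 were in the table and 17 passed the filter, and 3 are named in the study: SlPR1 (Solyc01g106620), an SA-induced secreted defence protein, SlSARD1-2 (Solyc03g119250), whose Arabidopsis relative promotes SA synthesis, and the ortholog of WRKY70 (Solyc03g095770), a transcription factor between SA and jasmonate signalling. The others are given by identifier alone. Against ungrafted stems at 7 DAG, 3 of the 17 were upregulated in self-grafted scions, 2 in self-grafted stocks, 6 in heterografted scions and 6 in heterografted stocks, where 1 was downregulated. Their median log2 fold change was 0.80, 0.71, 1.24 and 1.44, beside 0.03, 0.14, 0.12 and 0.05 over all genes. In the same order, 1.93%, 1.19%, 8.16% and 19.5% of all genes were called in either direction.

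Between heterografts and self-grafts at 7 DAG, Solyc06g071280 was the 1 of 17 called in scions, where it was upregulated (1.54, adjusted p = 0.00727, with 2.37% of all genes called). In stocks SlPR1 (2.50, adjusted p = 0.0174) and Solyc08g080640 (2.86, adjusted p = 0.00587) were upregulated and Solyc02g065240 was downregulated (-1.94, adjusted p = 0.00750), so that 3 of 17 were called beside 10.5% of all genes. SlPR1 held 3257 ± 1138 CPM in the heterografted stocks (n = 4), where SAMT was listed at 0, and 564 ± 570 CPM in the self-grafted stocks (n = 3). It held 6.50 ± 2.58 CPM in ungrafted stems (n = 4), where SAMT was highest. NPR1 and NPR1-like were not called between heterografted and self-grafted stocks.

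At 14 DAG, 2 of the 17 were upregulated and 3 downregulated in heterografted against self-grafted scions, where 5.63% of all genes were called. The ortholog of WRKY70 (3.25, adjusted p = 0.00245) and Solyc08g080640 (2.38, adjusted p = 0.00979) were higher, and Solyc05g056170, Solyc09g007900 and Solyc09g007920 were lower (-1.92, -1.78 and -1.63). At 21 DAG 1 was higher, Solyc10g086180 (1.61, adjusted p = 0.00389), and 1 was lower, SlPR1 (-2.97, adjusted p = 0.00340), with 8.13% of all genes called. SlPR1 then held 134 ± 33.8 CPM in heterografted scions (n = 4) and 1024 ± 325 CPM in self-grafted scions (n = 4), without overlap. SlSARD1-2 was not called in any comparison of heterografts with self-grafts, with differences of 1.33 (adjusted p = 0.622), -0.47 (adjusted p = 0.857) and -1.66 (adjusted p = 0.302) in scions at 7, 14 and 21 DAG. In the heterografted stocks of 21 DAG 1 of the 17 was higher and 7 were lower than in self-grafted stocks, with a median of -2.25 beside -3.67 over all genes. As 59.8% of all genes were called there, this share of the list is not above the background.

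**Figure D4:**
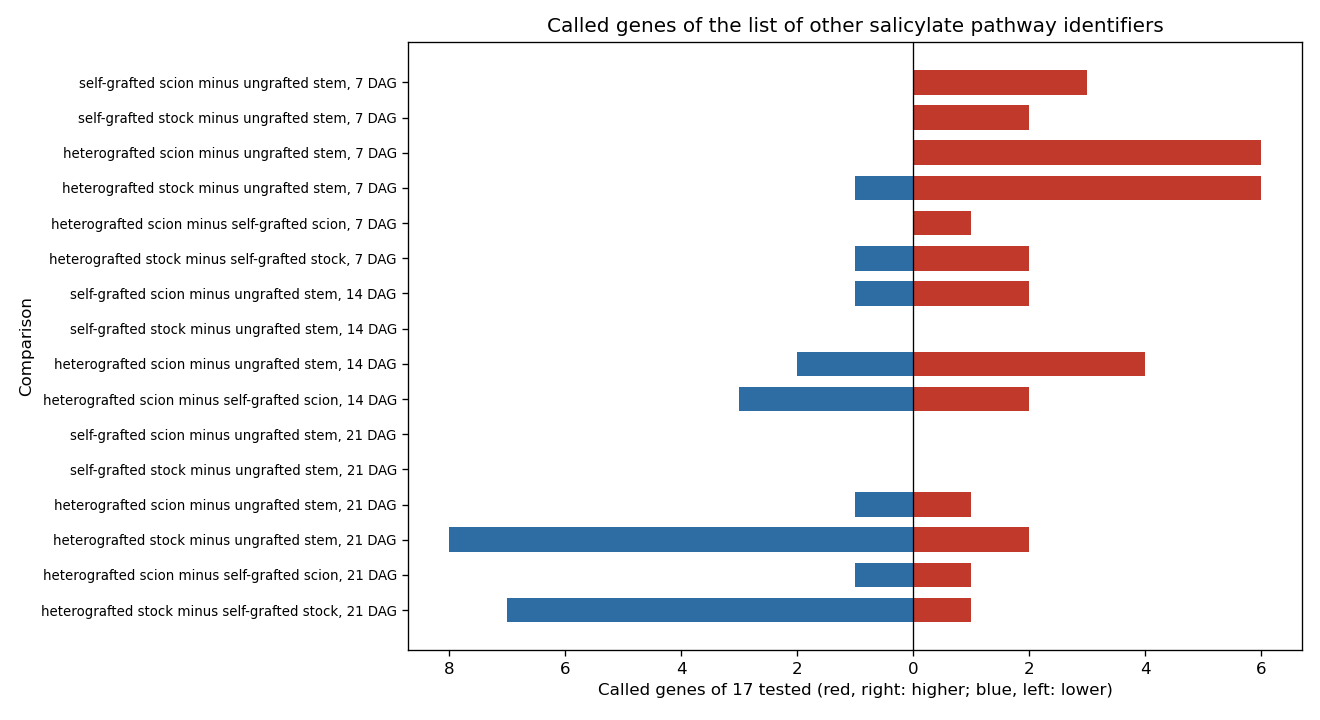
Number of the 17 tested genes of the SA pathway list called higher (red, to the right) or lower (blue, to the left) in each comparison within a day (y axis), not counting the 4 genes described above. The heterografted scions and stocks of 7 DAG have 6 genes higher than ungrafted stems each, where 8.16% and 19.5% of all genes were called. The heterografted stocks of 21 DAG have 8 lower and 2 higher than ungrafted stems, where 60.3% of all genes were called.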

How the data were processed

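Tomato stem tissue was sequenced from polyadenylated 3′ ends. Per the labels and the study's methods, the authors used FastQC 0.12.1, Trimmomatic and Prinseq on the reads, STAR 2.7.10b and SAMtools 1.18 for alignment and StringTie for counting over ITAG4 gene models, and removed outlying libraries of low count (versions from the submitters' processing notes). The deposited values are counts per gene without normalization. Pepper counts were not used.

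The tests were those of edgeR 4.0.16 (quasi-likelihood, TMM factors) and, as an alternative, DESeq2 1.42.0, both under R 4.3.3. Genes averaging under 10 counts or at 0 in 75% or more of the libraries were left out, as in the study. The 5 groups of a day were fitted together, and days were compared in 1 fit over 15 groups. Each SE was obtained by dividing the size of the difference by the root of its F value and is approximate. The test was tested on simulated data. No 2 libraries held identical values. Limits from 3 counts cover counting error only.

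The members and lists were chosen with earlier results of these data known. The text names the 4 members, identifiers of the pathway list with the smallest adjusted p between heterograft and self-graft at 7 DAG or, after their values were seen, those called at 14 and 21 DAG, genes the study names, and the 3 genes most like each member. Alternatives were DESeq2 and its size factors, other filters, only the groups compared, no heterografted stocks, 1 fit over all groups, the replicate block, no size threshold, CPM on total counts, each library left out and, chosen after the data were seen, libraries at 0 for a gene left out. The heterografted stocks of 14 DAG were given as counts only. Chromosomal positions and sequences of the tomato genes were not used here.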

Additional observations from a re-analysis of the deposited data

Results flagged for a closer look

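In 35 tests of the library farthest from its group, over NPR1, NPR1-like and SAMT, 3 libraries stood apart by Dixon's criterion, and chance gives about 1 in 20. NPR1 in ungrafted stems of 7 DAG was 8.99 CPM in replicate 1 and listed at 0 in the others, a gap as wide as the group's range (ratio 1). NPR1-like in self-grafted stocks of 14 DAG was 191 CPM in replicate 1 against 100 CPM in the next library, a gap of 0.815 of the range. In the self-grafted scions of that day replicate 1 was also the highest, at 196 CPM. SAMT in heterografted scions of 21 DAG was listed at 0 in replicate 4 and was 19.7 CPM or more in the others, a gap of 0.850 of the range.

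The difference of SlPR1 (Solyc01g106620) between heterografted and self-grafted scions changed between days. At 21 DAG it was lower than at 7 DAG by a log2 difference of -2.78 (interaction term, edgeR quasi-likelihood test, adjusted p = 0.0303), from -0.15 at 7 DAG to -2.97 at 21 DAG. The mean of SlPR1 went from 205 to 134 CPM in heterografted scions and from 226 to 1024 CPM in self-grafted scions. In ungrafted stems it went from 6.50 to 760 CPM (SD 666 at 21 DAG). None of NPR1, NPR1-like and SAMT passed the test of the interaction.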

How the results depend on the processing

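Of 732 values under 10 other settings, 682 kept their direction and call, as did 699 of 753 with a library left out. No called value turned, and 50 values that were not called did. NPR1-like in heterografted against self-grafted stocks of 21 DAG passed in 1 fit over all groups (1.55), with DESeq2 size factors (1.55), with the DESeq2 Wald test (1.54), with only the groups compared (1.84) and on the adjusted p alone (1.43), and ran from 1.12 to 1.78 with a library left out. Against ungrafted stems it was 1.39 with no filter and 1.40 to 2.03 with a library left out. On the adjusted p alone, NPR1-like in heterografted stocks against scions of 7 DAG (-0.76) and SAMT in heterografted scions against ungrafted stems of 14 DAG (-1.37) also passed. NPR1 in heterografted scions against ungrafted stems of 7 DAG passed in 1 fit over all groups (2.34) and with the DESeq2 Wald test (2.35), and ran from 1.94 to 7.35 with a library left out. In heterografted stocks it no longer passed with filterByExpr (2.44), no filter (2.41), only the groups compared (2.51) or, chosen after the data were seen, without libraries at 0 (0.63), and ran from 2.04 to 7.45. SAMT in heterografted stocks against self-grafted stocks of 21 DAG passed in 1 fit over all groups (fitted -6.66). This value depends on the prior count since all 3 heterografted stocks are at 0. A floor of 3 counts over the group allows only at least 2.15-fold, if low counts were not listed as 0. With a library left out, SAMT in heterografted scions of 14 DAG was -1.56 to -1.04 against self-grafted scions and -1.72 to -1.14 against ungrafted stems. The cause of these changes was not tested.

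The values that turned with DESeq2 size factors and with the DESeq2 Wald test, in that order, were those of NPR1-like in heterografted scions from 7 to 21 DAG (-0.28 and -0.28), in heterografted against self-grafted scions of 21 DAG (0.0096 and 0.010) and in ungrafted stems from 7 to 21 DAG (-0.073 and -0.072), of NPR1 in heterografted against self-grafted scions of 14 DAG (0.24 and 0.24), and of SAMT in the change of the scion difference from 7 to 14 DAG (0.13 and 0.12), in self-grafted scions from 7 to 14 DAG (-0.11 and -0.10) and in self-grafted stocks against scions of 14 DAG (-0.0064 and -0.0055). The last was -0.0011 with the replicate block. NPR1 in self-grafted stocks against scions of 21 DAG was -0.0065 with the Wald test. Without libraries at 0, NPR1 against ungrafted stems of 7 DAG was -0.16 in self-grafted scions and -0.031 in self-grafted stocks. With a library left out, NPR1-like ran from -0.029 to 0.18 in heterografted scions from 7 to 21 DAG, -0.13 to 0.084 in heterografted against self-grafted scions of 21 DAG, -0.033 to 0.24 between the stocks of 7 DAG, -0.35 to 0.017 in self-grafted scions against ungrafted stems of 7 DAG, -0.40 to 0.22 in self-grafted stocks against scions of 14 DAG and -0.025 to 0.33 in ungrafted stems from 7 to 21 DAG. NPR1 ran from -0.22 to 0.16 and -0.37 to 0.016 in heterografted scions of 14 and 21 against 7 DAG, -0.069 to 0.32 in heterografted stocks against scions of 7 DAG, -0.030 to 0.31 in self-grafted stocks against ungrafted stems of 14 DAG, and -0.061 to 0.44 and -0.14 to 0.29 in self-grafted stocks against scions of 7 and 21 DAG. SAMT ran from -0.25 to 0.35 in heterografted scions from 7 to 14 DAG, -0.31 to 0.063 and -0.44 to 0.16 in self-grafted scions and stocks against ungrafted stems of 14 DAG, and -0.27 to 0.23 and -0.54 to 0.80 in self-grafted stocks against scions of 14 and 21 DAG.

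With the replicate number as a block no call of the 3 genes changed, for example SAMT in heterografted scions against ungrafted stems of 7 DAG at -3.84 (edgeR, adjusted p = 0.00306). Over 81 pairs of libraries with the same number in different groups of a day the correlation of deviations ran from -0.22 to 0.24 and was over 0.1 in 6. Scion and stock of self-grafts, which could come from the same plant, made up 11 of these pairs. Among them it ran from -0.074 to 0.227 and was over 0.1 in 3. The numbers were not taken as pairs. Whether self-grafted scions and stocks with the same number shared a plant cannot be told from these values.

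Levels moved by more than their SD in 20 of 258 cases with other library scaling or with a library left out. All 20 were cases of other scaling, so the share under scaling alone was higher. The DESeq2 size factors shifted the median of all genes by 0.47 in heterografted scions against ungrafted stems of 14 DAG. Values of NPR1 and SAMT rest on 4 to 87 counts a library where not 0, and the heterografted stocks of 14 DAG are too shallow for any of these genes. The p-values set each difference against a spread between libraries that was estimated over all groups of a fit, with libraries treated as independent.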
